A study of Mus musculus with 8 samples.

Results

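The genes described here take fatty acids into heart muscle, activate them and oxidise them in mitochondria, together with the PPAR and PGC-1 regulators and targets of that pathway. They were given as a list of 35 gene symbols, and a member was taken as measured when at least 1 probe set of the array carried its symbol and no other. By this rule 32 of the 35 members were measured, among 22180 genes in all. Acsl1 and Ucp2 had no probe set under their own symbol, and the probe set that names Cpt1b also names other genes, so these 3 members have no value here.

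The arrays held RNA from whole hearts, labelled as myocardium, of mice heterozygous for Pcyt2 (Pcyt2+/-) at 8 months of age, with 4 males and 4 females. Pcyt2 encodes the rate-limiting enzyme of phosphatidylethanolamine synthesis from ethanolamine. Every animal carries the same genotype and age and no treatment is named, so the one comparison is between the sexes. Wild-type hearts were not used here. The labels call the hearts biological replicates and name neither the strain nor the diet or fasting state.

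Most of the energy of the adult heart comes from fatty acids. They enter through CD36 and fatty acid transport proteins, are bound by FABP3, become acyl-CoA, cross into mitochondria on carnitine and are shortened by repeated dehydrogenation, hydration, dehydrogenation and thiolysis. Malonyl-CoA, made by ACC2 (Acacb) and removed by malonyl-CoA decarboxylase (Mlycd), sets the entry step, and fatty acid-activated PPAR receptors with their PGC-1 coactivators drive transcription of the pathway, which fasting raises and feeding lowers.

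The deposited log2 values are centred so that the median heart of every probe set reads 0. They show how hearts differ and hold no absolute level, and levels of different genes cannot be set against each other. A difference below is the female mean minus the male mean of 4 hearts each, and p-values come from limma with Benjamini-Hochberg adjustment over all 22180 genes and a threshold of 0.05. In bulk RNA, fewer cells of a type and less RNA per cell cannot be told apart. The labels and the direction of the scale were checked with Xist (difference 4.84) and 3 Y-linked genes (differences from -3.03 to -1.88). The 10 cardiomyocyte markers had list means between -0.07 and 0.02 on all 8 arrays, but with centred values their presence cannot be checked.

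The promoters of 3 members are shown first because the pairs they belong to are compared across hearts below. Each is the 250 bases before the RefSeq start of the gene, 5′ to 3′ on the strand of the gene, in GRCm38.p6, the build of the RefSeq table and not a build named for the arrays. Hadhb (chr5:30155003-30155252, plus strand) and Hadha lie head to head with starts 273 bases apart, and capitals mark the 228 bases that are also within the promoter window of Hadha. Pdk4 (chr6:5496279-5496528, minus strand) and Ucp3 (chr7:100472741-100472990, plus strand) are PPAR-responsive genes, and capitals mark the nuclear receptor half-site AGGTCA on either strand, which occurs at 2 places in Ucp3 and not in these letters of Pdk4.
Hadhb: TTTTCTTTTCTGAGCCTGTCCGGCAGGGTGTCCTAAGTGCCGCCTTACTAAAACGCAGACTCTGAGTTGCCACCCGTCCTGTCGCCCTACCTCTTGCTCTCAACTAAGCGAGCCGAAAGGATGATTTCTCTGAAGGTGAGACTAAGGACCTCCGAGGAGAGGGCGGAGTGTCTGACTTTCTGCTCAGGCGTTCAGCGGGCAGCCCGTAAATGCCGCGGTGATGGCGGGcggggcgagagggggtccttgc
Pdk4: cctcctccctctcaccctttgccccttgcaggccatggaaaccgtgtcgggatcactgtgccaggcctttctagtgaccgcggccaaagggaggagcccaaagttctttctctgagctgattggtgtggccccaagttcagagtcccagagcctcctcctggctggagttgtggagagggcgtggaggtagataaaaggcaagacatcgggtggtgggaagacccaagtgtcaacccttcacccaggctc
Ucp3: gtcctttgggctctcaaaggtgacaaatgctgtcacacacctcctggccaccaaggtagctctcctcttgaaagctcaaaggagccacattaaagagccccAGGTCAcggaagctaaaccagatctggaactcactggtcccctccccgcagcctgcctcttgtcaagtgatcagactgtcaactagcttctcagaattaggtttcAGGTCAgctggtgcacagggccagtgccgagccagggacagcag

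Of 30 members with a promoter window (250 bases before to 50 after the start, both strands searched), 6 held AGGTCA, namely Acacb, Acadm, Acadvl, Cd36, Cpt1a and Ucp3. That is 20% of the members, against 18.1% of 27025 genes searched in the same way. A direct repeat of AGGNCA with 1 base between the copies, the general form of a PPAR element, was in 0 of the 30 and in 0.451% of all genes, and TNAAGGTCA, the form bound by estrogen-related receptors, was in 0 and in 1.43%. TNAAGGTCA contains the half-site, the repeat can contain it, and a match is a description of the letters only.

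No member differed between the sexes past the threshold. Of the 32 measured members 0 passed, against 0.0316% of all genes (7 genes), and the lowest adjusted p of a member was 0.481 (limma). Males had the higher mean in 25 of 32 members, or 78.1%, where 50.4% of all genes did (21 to 28 members over 22 alternatives), and the median difference was -0.07 over the members and 0.00 over all genes. With no adjustment 4 members had p under 0.05, 3 of them higher in males, where 6.96% of all genes had such a p and 3.32% had one with the higher mean in males. The values of the sexes did not overlap in 2 members, Ppargc1a and Angptl4, or 6.25% of the members, against 3.74% of all genes. The SE of a member's difference had a median of 0.06 and ran from 0.04 (Cd36) to 0.19 (Pdk4). For 20 members the direction held in all 22 alternatives. For Slc27a1, Acacb, Acadvl, Hadh, Ech1, Eci1, Etfa, Ppara, Ppard, Esrra, Pdk4 and Ucp3 it turned in at least 1 of them. Not all 22 could turn a direction. Those that changed only the variance estimate or blocked by replicate number left every difference as it was, and median centring of each array moved differences very little.

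**Figure D1:**
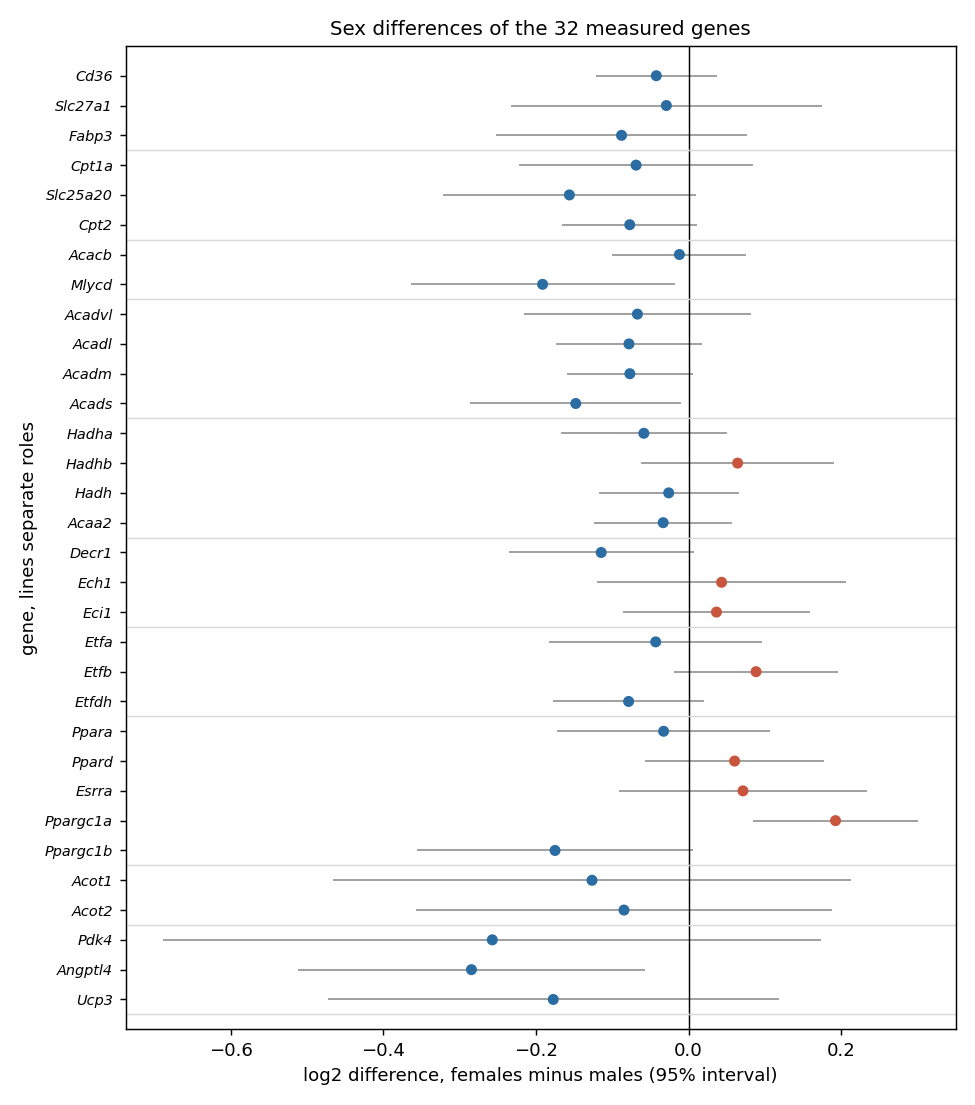
Difference between the sexes of each of the 32 measured genes (x axis, log2 value in females minus males) with its 95% interval from limma; blue points have the higher mean in males and red points in females, and lines separate the roles. Of the points 25 lie left of 0, and no gene passed after adjustment over all genes.

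The median member per array was 0.00, -0.03, 0.07 and 0.05 in males 1 to 4 and -0.02, 0.02, -0.02 and -0.01 in females 1 to 4. These ranges overlap. Males 3 and 4 were high in most members, with 28 and 24 of the 32 above their own median, while in male 2 only 10 were, as few as in female 1. The median difference of -0.07 was -0.04 without female 1 and -0.03 without the 3 hearts lowest in the atrial marker Bmp10 (males 1 and 3 and female 1). Male 3 held the highest value of 12 members and female 1 the lowest value of 9. The 9 were Cpt1a, Mlycd, Acadl, Hadha, Ppargc1b, Acot1, Pdk4, Angptl4 and Ucp3.

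**Figure D2:**
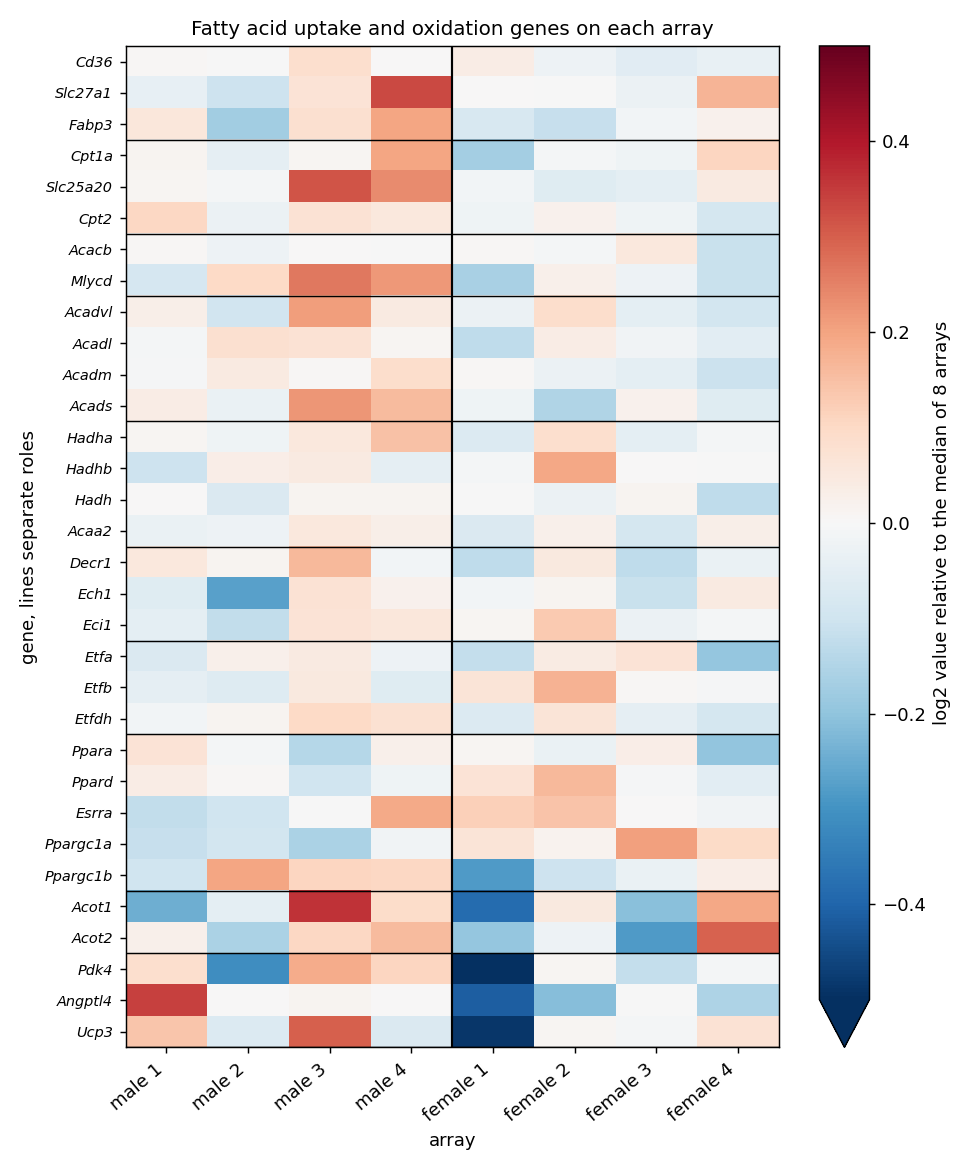
Log2 value of each measured gene (rows, grouped by role) on each array (columns), relative to the median of the 8 arrays; red is above and blue below that median, and the colour scale ends at -0.5 and 0.5. Males 3 and 4 are mostly red, and the darkest blue cells are Pdk4, Ucp3 and Angptl4 in female 1.

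All 3 uptake members had higher means in males and 0 passed. Cd36, the main fatty acid transporter of heart muscle, had the narrowest spread of all members: its values ran from -0.06 to 0.08, and the difference was -0.04 (95% interval -0.12 to 0.04). Slc27a1, a fatty acid transport protein, was highest in male 4 at 0.33 and in female 4 at 0.17, with a difference of -0.03. Fabp3, the cytoplasmic fatty acid carrier of heart, had a difference of -0.09 ± 0.07 (SE), which ran from -0.16 (without male 2) to -0.04 (without male 4) when 1 array was left out. It is the one member with 2 probe sets, whose differences were -0.14 ± 0.12 and -0.03 ± 0.06 (SE). The values of the 2 probe sets correlated at only r = 0.28 across the 8 arrays, so their average joins readings that differ.

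The carnitine shuttle also had higher means in males in its 3 measured members. Slc25a20, which carries acylcarnitines across the inner membrane, had values of 0.01, -0.01, 0.31 and 0.23 in males 1 to 4 and -0.01, -0.06, -0.05 and 0.05 in females 1 to 4. Males 3 and 4 stood above every other heart, and males 1 and 2 lay among the females. Its difference was -0.16 ± 0.07 (SE, limma adjusted p = 0.726). Cpt2, the inner carnitine palmitoyltransferase, had 0.10, -0.03, 0.07 and 0.05 in males and -0.02, 0.02, -0.02 and -0.09 in females, a difference of -0.08 ± 0.04 (SE, limma adjusted p = 0.744). Male 2 lay below 3 of the females. Cpt1a, an outer palmitoyltransferase, ran from -0.17 in female 1 to 0.20 in male 4, with a difference of -0.07 ± 0.07 (SE).

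Both enzymes that set malonyl-CoA had higher means in males, with differences of unlike size. Mlycd, whose enzyme removes malonyl-CoA and so frees the carnitine step, had values of -0.09, 0.10, 0.26 and 0.22 in males and -0.16, 0.03, -0.03 and -0.11 in females. Males 2, 3 and 4 lay above all females, and male 1 lay among them. Its difference of -0.19 ± 0.08 (SE) had an unadjusted p of 0.0337 and an adjusted p of 0.672 (limma). Acacb, the enzyme that makes malonyl-CoA at the mitochondrion, had a difference of -0.01 ± 0.04 (SE), the smallest of the members, and its 4 male values had an SD of 0.01 on the log2 scale.

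All 4 acyl-CoA dehydrogenases, which take the first oxidation step and differ in the chain length they prefer, had higher means in males. Acads, for short chains, had values of 0.04, -0.03, 0.22 and 0.16 in males and -0.02, -0.15, 0.02 and -0.06 in females. Males 3 and 4 were again the highest, and male 2 lay among the females. The difference was -0.15 ± 0.06 (SE, unadjusted p = 0.039, limma adjusted p = 0.688). Acadm, for medium chains, had -0.01, 0.04, 0.01 and 0.09 in males and 0.01, -0.03, -0.05 and -0.11 in females. Its difference was -0.08 ± 0.04 (SE, limma adjusted p = 0.726), and male 1 lay just below female 1. Acadl and Acadvl, for long and very long chains, had differences of -0.08 ± 0.04 and -0.07 ± 0.07 (SE).

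The subunits of the mitochondrial trifunctional protein, which takes long chains through the next steps, did not lean the same way while their genes share a promoter region. Hadha had values of 0.01, -0.02, 0.05 and 0.15 in males and -0.07, 0.08, -0.05 and -0.01 in females, with a difference of -0.06 ± 0.05 (SE). Hadhb had -0.11, 0.03, 0.04 and -0.05 in males and -0.01, 0.19, 0.00 and 0.00 in females, with a difference of 0.06 ± 0.06 (SE). Female 2 was highest for Hadhb and second highest for Hadha, and neither gene separated the sexes. Hadh and Acaa2, the short-chain dehydrogenase and the thiolase, had differences of -0.03 each, and every value of both lay between -0.13 and 0.05.

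Of the enzymes that handle double bonds, Decr1, the dienoyl-CoA reductase, had 0.05, 0.01, 0.16 and -0.01 in males and -0.13, 0.05, -0.13 and -0.03 in females. Only female 2 reached the level of the males. The difference was -0.11 ± 0.05 (SE, limma adjusted p = 0.726). Ech1 and Eci1, both isomerases, had small differences towards females, 0.04 ± 0.07 and 0.04 ± 0.05 (SE), and the direction of both turned under other settings given below. Male 2 was the lowest array for both, at -0.27 for Ech1.

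The electron transfer flavoprotein passes electrons from the dehydrogenases to the respiratory chain through the oxidoreductase encoded by Etfdh. Etfb had -0.04, -0.06, 0.05 and -0.06 in males and 0.06, 0.17, 0.00 and 0.00 in females, a difference of 0.09 ± 0.05 (SE, limma adjusted p = 0.756). Males 1, 2 and 4 lay below every female, and male 3 lay above females 3 and 4. Its partner subunit Etfa had -0.07, 0.02, 0.04 and -0.02 in males and -0.12, 0.04, 0.07 and -0.19 in females, with the lower mean in females by 0.04 ± 0.06 (SE), and Etfdh had a difference of -0.08 ± 0.04 (SE).

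The regulators held the member with the smallest p. Ppargc1a encodes PGC-1 alpha, the coactivator of mitochondrial biogenesis and of PPAR alpha, and had values of -0.12, -0.09, -0.16 and -0.02 in males and 0.06, 0.02, 0.21 and 0.10 in females. Each female lay above each male. The females were 1.14-fold higher (log2 difference 0.19 ± 0.05 SE, 95% interval 0.08 to 0.30, unadjusted p = 0.00291), but the adjusted p was 0.481 (limma), and over 22 alternatives it ran from 0.463 to 0.948.

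Its relative Ppargc1b leaned the other way. It had -0.10, 0.20, 0.11 and 0.10 in males and -0.28, -0.11, -0.03 and 0.03 in females, a difference of -0.17 ± 0.08 (SE, limma adjusted p = 0.720). Males 2, 3 and 4 lay above all females, and male 1 fell among them. Of the receptors, Ppara, the main fatty acid sensor of heart, had 0.07, -0.01, -0.14 and 0.02 in males and 0.01, -0.03, 0.03 and -0.20 in females, a difference of -0.03 ± 0.06 (SE). Esrra, an orphan receptor that works with PGC-1 alpha, had -0.12, -0.10, 0.00 and 0.19 in males and 0.12, 0.14, 0.00 and -0.02 in females, a difference of 0.07 ± 0.07 (SE). Both overlapped between the sexes, as did Ppard, with 0.06 ± 0.05 (SE).

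Among the members, the PPAR-responsive regulators Pdk4, Ucp3 and Angptl4 and the thioesterases Acot1 and Acot2 varied most from heart to heart. No response to fasting or PPAR ligands was measured. Of the members, 9 of 32 had an SD over the 8 arrays among the widest 10% of all genes, and the 5 widest were Pdk4, Acot1, Ucp3, Angptl4 and Acot2, at the 97.8th percentile of all genes or above. The median SD was 0.10 over the members and 0.08 over all genes. The centred values hold no brightness, so the members could not be set against genes of like level.

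Pdk4 encodes the kinase that switches off pyruvate dehydrogenase and spares glucose when fat is burnt. It had 0.08, -0.31, 0.19 and 0.11 in males and -0.85, 0.01, -0.12 and -0.01 in females. Female 1 stood far below all other hearts and male 2 was next. The difference of -0.26 ± 0.19 (SE, limma adjusted p = 0.856) was -0.06 without female 1 and turned to 0.06 without the 3 hearts lowest in Bmp10.

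Ucp3, a mitochondrial carrier protein gene that rises with fatty acid supply, had 0.14, -0.07, 0.30 and -0.07 in males and -0.49, 0.01, -0.01 and 0.07 in females. Female 1 was again the lowest heart. The difference was -0.18 ± 0.13 (SE, limma adjusted p = 0.855), with -0.05 without female 1 and 0.10 without the same 3 hearts.

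Angptl4 encodes a secreted inhibitor of lipoprotein lipase. It had 0.34, 0.0018, 0.013 and 0.0022 in males and -0.41, -0.21, -0.0018 and -0.15 in females. The sexes did not overlap, but female 3 and male 2 were less than 0.01 apart, and the difference leaned on male 1 and female 1. Males were 1.22-fold higher (log2 difference -0.28 ± 0.10 SE, 95% interval -0.51 to -0.06), with an unadjusted p of 0.0197 and an adjusted p of 0.633 (limma). The difference was -0.21 without female 1 and -0.20 without male 1, and over 22 alternatives it ran from -0.35 to -0.12.

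The thioesterases Acot1 and Acot2 release free fatty acids from acyl-CoA in the cytosol and in mitochondria. They are neighbours on chromosome 12 with starts 21641 bases apart on the same strand. Acot1 had -0.25, -0.05, 0.36 and 0.09 in males and -0.38, 0.05, -0.21 and 0.19 in females. Acot2 had 0.03, -0.16, 0.10 and 0.16 in males and -0.19, -0.03, -0.28 and 0.29 in females. Both spanned overlapping ranges in the sexes, with differences of -0.13 ± 0.15 and -0.08 ± 0.12 (SE). When 1 array was left out, Acot1 ran from -0.22 (without male 1) to -0.02 (without male 3) and Acot2 from -0.20 (without female 4) to -0.0072 (without female 3). The genes are close paralogs, and whether their probe sets detect each other's RNA was not tested. Their promoter windows had 59.3% of 300 bases identical after alignment, inside the range of 50% to 64% over the 434 other pairs of member windows.

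**Figure D3:**
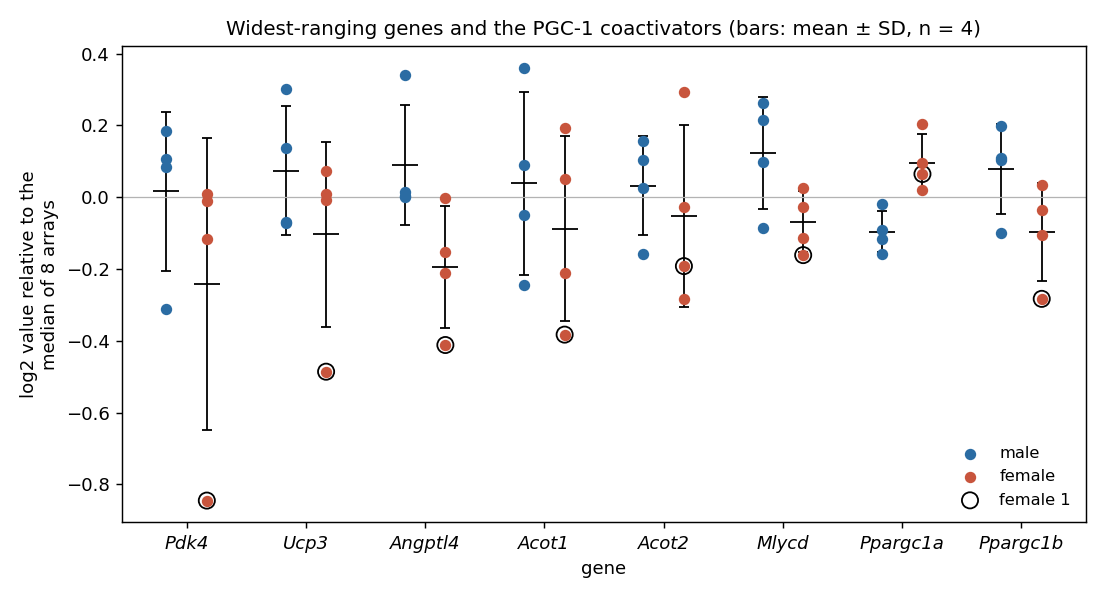
Log2 values relative to the median of the 8 arrays (y axis) of the 6 genes with the widest spread and of both PGC-1 coactivators, for 4 males (blue) and 4 females (red) each; black bars are mean ± SD and rings mark female 1. Female 1 is the lowest heart for Pdk4 (-0.85), Ucp3 (-0.49), Angptl4 (-0.41) and Acot1 (-0.38), while the sexes separate for Ppargc1a.

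Markers of other tissues also differed between hearts. The means of the 6 atrial muscle markers were -0.74, 0.25, -1.02 and 0.17 in males and -1.23, 0.52, -0.18 and 0.34 in females, so female 1 had the lowest mean. Male 3 was lower than female 1 for Nppa (-0.87 against -0.73) and Dkk3 (-0.78 against -0.75). The means of the 8 fast skeletal muscle markers were 0.60, 0.88, -0.20 and -0.19 in males and 0.35, 0.11, -0.17 and -0.25 in females. The 6 liver markers had means of 0.39 in female 1 and 0.71 in female 2, and between -0.07 and 0.01 in the other 6 hearts. In female 1 Alb was at 1.76 and Apoa2 at 0.41, and the remaining markers lay between -0.03 and 0.13. In female 2 Alb was at 2.69, and the remaining markers lay between 0.18 and 0.41.

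The 5 brown adipocyte markers had means of -0.09, -0.21, 0.21 and -0.06 in males and -0.20, 0.12, 0.19 and 0.06 in females. Male 2 and female 1, the lowest hearts for Pdk4, were the lowest for Ucp1 (-0.62 and -0.67) and Cidea (-0.33 and -0.29) but not for the other 3 markers, of which Elovl3 was lowest in male 4 (-0.09), Dio2 in male 1 (-0.07) and Cox8b in male 2 (-0.12) and male 4 (-0.11). The 7 measured adipocyte markers had means of -0.33, -0.17, 0.07 and -0.15 in males and -0.04, 0.26, 0.06 and 0.65 in females. With the adipocyte mean as a covariate the differences were -0.55 for Pdk4, -0.40 for Ucp3, -0.49 for Acot1 and -0.34 for Acot2, and with the brown adipocyte mean, a setting added after seeing the data, they were -0.37, -0.26, -0.20 and -0.11. No adjusted p of these passed (limma, 0.399 to 0.925). With the adipocyte mean other members had smaller differences than in the main fit, such as Angptl4 (-0.27), Acadm (-0.04) and Cpt2 (-0.05). Whether these tissues contribute to the members' values was not tested beyond these fits, and no absolute level of any marker is known. The 6 endothelial markers had means from -0.02 to 0.06 in males and from -0.09 to 0.00 in females, and the 6 fibroblast markers from -0.06 to 0.20 and from -0.15 to 0.06.

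Pairs of members that share a promoter, a complex, a chromosome region or PPAR control were compared across the 8 hearts after the mean of each sex was taken off, with exact two-sided permutation tests within the sexes over 576 arrangements and adjustment over the 11 pairs that could be formed. After adjustment 0 of the 11 passed, by Pearson or Spearman. Without adjustment the closest pair was Pdk4 and Ucp3, with Pearson's r = 0.89 (exact permutation p = 0.0226, adjusted p = 0.248) and Spearman's rho = 0.83 (exact permutation p = 0.0260, adjusted p = 0.143). Ucp3 ranked 67th of 22179 genes by its correlation with Pdk4. Without female 1 and male 2, the arrays farthest from the median of Pdk4, r was 0.51 over 6 arrays, and without female 1 alone it was 0.63 (exact permutation p = 0.340), so the size of r rests in part on those hearts. Without taking off the sex means r was 0.91 (exact permutation p = 0.00427, adjusted p = 0.0469), the only adjusted p under 0.05 among the settings tried. Spearman's rho in that same setting was 0.62 (exact permutation p = 0.115).

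Acot1 and Acot2 had r = 0.69 (exact permutation p = 0.0816, adjusted p = 0.315) and rho = 0.69 (exact permutation p = 0.104, adjusted p = 0.286), and r = 0.51 without male 3 and female 4. Pdk4 and Acot1 had r = 0.66 (exact permutation p = 0.115, adjusted p = 0.315) and rho = 0.79 (exact permutation p = 0.0226, adjusted p = 0.143), and r = 0.86 without female 1 and male 2. Ucp3 and Acot1 had r = 0.66 (exact permutation p = 0.108, adjusted p = 0.315) and rho = 0.79 (exact permutation p = 0.0417, adjusted p = 0.153), and r = 0.61 without female 1 and male 4. Without female 1 alone r was 0.65 for Acot1 and Acot2, 0.45 for Pdk4 and Acot1 and 0.45 for Ucp3 and Acot1. All these relations were in the same direction as that of Pdk4 and Ucp3, and none passed the adjustment.

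Hadha and Hadhb, transcribed away from each other from the region printed with Hadhb, had r = 0.45 (exact permutation p = 0.292, adjusted p = 0.458) and rho = 0.48 (exact permutation p = 0.302, adjusted p = 0.415), and r = 0.16 without male 4 and female 2. Hadhb ranked 3595th of 22179 genes by its correlation with Hadha. Etfa and Etfb had r = 0.43 (exact permutation p = 0.436, adjusted p = 0.569) and rho = 0.26 (exact permutation p = 0.503, adjusted p = 0.615). Without female 3 and female 4 their r was 0.76.

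Angptl4 had r = 0.56 with Pdk4 (exact permutation p = 0.238, adjusted p = 0.436), which turned to -0.73 without female 1 and male 2, and r = 0.58 with Ucp3 (exact permutation p = 0.215, adjusted p = 0.436). Their rho was 0.48 (exact permutation p = 0.247, adjusted p = 0.406) and 0.52 (exact permutation p = 0.184, adjusted p = 0.405), and without male 1 and female 3 the r with Ucp3 was 0.84. With Acot1, Angptl4 had r = -0.17 (exact permutation p = 0.712, adjusted p = 0.783) and rho = 0.07 (exact permutation p = 0.878, adjusted p = 0.878). When female 1 alone was left out, the r of Angptl4 was 0.08 with Pdk4, 0.19 with Ucp3 and -0.74 with Acot1. Neither Ppargc1a with Esrra (r = 0.04, rho = -0.19, exact permutation p = 0.936 and 0.656, adjusted p = 0.936 and 0.722) nor Ppara with Pdk4 (r = -0.36, rho = -0.48, exact permutation p = 0.465 and 0.259, adjusted p = 0.569 and 0.406) passed. The last 3 pairs changed sign when their 2 outermost arrays were left out. Within one sex there are 4 hearts, too few for a correlation.

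**Figure D4:**
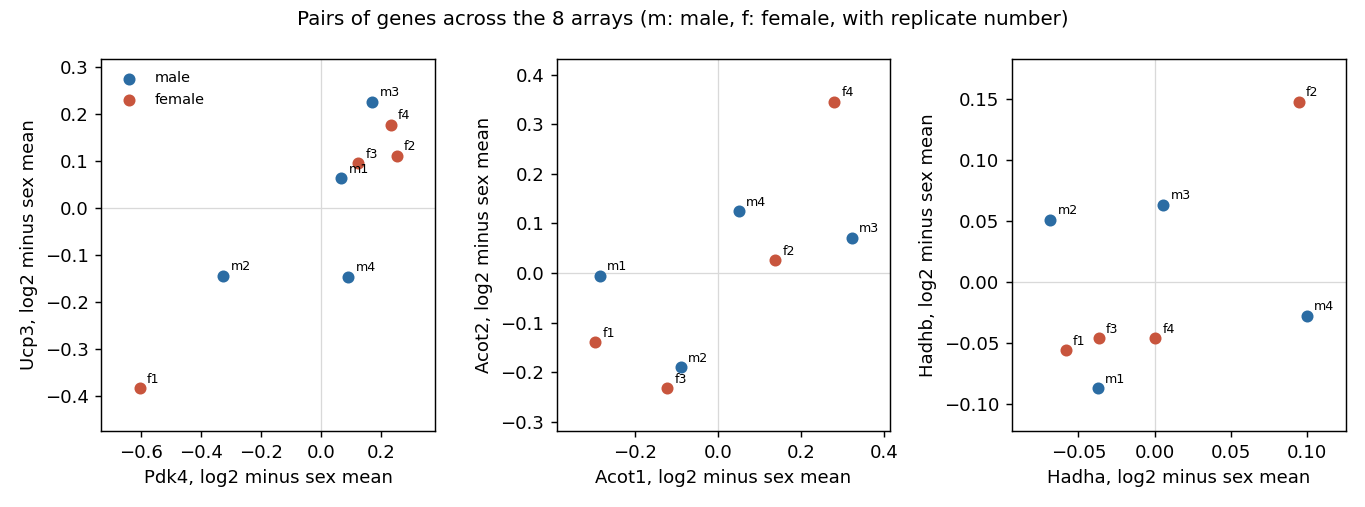
Each point is 1 of the 8 arrays (m for male, f for female, with the replicate number), and both axes are log2 values minus the mean of the sex, for Pdk4 and Ucp3, Acot1 and Acot2, and Hadha and Hadhb. In the first panel female 1 lies alone at the lower left and r is 0.89; in the last panel r is 0.45 and female 2 lies at the upper right.

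Other genes of the pathway were read from 7 further lists. Of 87 genes listed 78 were measured, 0 passed the threshold, and 44 (56.4%) had higher means in males, with a median difference of -0.01. Without adjustment 7 of the 78 had p under 0.05 by limma, 2 of them higher in males, against 6.96% and 3.32% of all genes. The sexes did not overlap in 2 of the 78, Abcd3 and Acsl4, against 3.74% of all genes. Among 18 other genes of mitochondrial oxidation, 10 had higher means in females. The smallest p there belonged to Hsd17b10, a hydroxyacyl-CoA dehydrogenase gene, at 0.10 ± 0.04 (SE), and Acadsb, a branched-chain acyl-CoA dehydrogenase gene, at 0.10 ± 0.04 (SE), with adjusted p of 0.662 and 0.663 (limma).

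Peroxisomal oxidation, which shortens very long chains, had higher means in males in 9 of 13 genes. Abcd3, a peroxisomal fatty acid importer, had a difference of -0.11 ± 0.04 (SE), and Hacl1, a lyase of branched chains, one of 0.10 ± 0.04 (SE), with adjusted p of 0.639 and 0.619 (limma). Further uptake and activation genes divided 7 to 6 between higher means in males and in females, and the smallest p belonged to Acsl4 and Acss1, with differences of 0.10 and 0.09. Other thioesterases divided 5 to 4, and the smallest p belonged to Them4 and Acot11, with differences of 0.07 and -0.04. Of 3 measured ketone body genes 2 had higher means in males. The smallest p there belonged to Oxct1, at 0.05 and so higher in females, and Bdh1, at -0.05.

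Among 17 partners and coregulators of PPAR and energy sensors, 10 had higher means in males. Acaca, the cytosolic acetyl-CoA carboxylase of fatty acid synthesis and a close relative of Acacb, had the largest difference, 0.28 ± 0.09 (SE, limma adjusted p = 0.577), and Med1, a Mediator subunit that binds nuclear receptors, had -0.15 ± 0.05 (SE, limma adjusted p = 0.566). The kinases and phosphatases of pyruvate dehydrogenase other than Pdk4 divided 3 to 2, with Pdk2 at -0.06 and Pdp1 at 0.07. Their spread over the 8 hearts was at most at the 89.8th percentile of all genes (Pdp1), and that of Pdk4 at the 99.6th.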

How the data were processed

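Per the labels' protocols, mice were killed 3 to 4 hours into the light phase, and 100 ng of RNA per heart was labelled with biotin for an Affymetrix array. The deposited table gives log2 values of 34351 probe sets on 8 arrays, each probe set with a median of 0 (tolerance 1e-06). Base 2 was assumed, and neither normalization nor software is named in the sources used here. The number of arrays limits the precision.

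Probe sets with 1 gene symbol in the platform annotation (23521) were averaged per gene, while 1814 with several symbols and 9016 unnamed ones were left out. Sex was the single factor in a limma 3.58.1 model (R 4.3.3, eBayes) over all genes, and the code was tested on simulated data. RefSeq promoter windows (GRCm38.p6) were matched by symbol and aligned with Biopython 1.88.

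Values per array are given for the 10 members with the smallest p, the 6 with the widest spread and the genes of the pairs. Each pathway list is shown by its 2 genes with the smallest p. Members, lists and pairs were chosen with earlier results of these data known. The closing section names the alternatives.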

Additional observations from a re-analysis of the deposited data

Results flagged for a closer look

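Among 64 groups of 4 arrays (32 members in 2 sexes), 8 held 1 heart far from the other 3, with a gap to its nearest neighbour of more than Dixon's 95% critical share of the range of the group. Chance gives about 1 in 20 for independent groups. The share over all genes was not taken and the 64 groups reuse the same 8 arrays, so the count is a description only. All values are log2 relative to the median heart.

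Female 1 stood apart in Pdk4, at -0.85 with the next female at -0.12, and in Ucp3, at -0.49 with the next at -0.01. Male 1 stood apart in Angptl4, at 0.34 with the next male at 0.01. These 3 genes are PPAR-responsive, and in them the gap came to more than 0.3. Female 2 stood apart in Hadhb at 0.19 and female 4 in Slc27a1 at 0.17. The other 3 were small shifts in groups with a tight spread, which were Cd36 in male 3 at 0.084, Hadh in male 2 at -0.071 and Etfb in male 3 at 0.050.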

How the results depend on the processing

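No member passed the threshold in any of 23 alternatives, and the 25 members with higher means in males were 21 to 28 (21 to 27 leaving out 1 array). The cause of the shifts listed here was not tested. Genes past the threshold numbered 7 of 22180, 3 after quantile normalization, 4 with the adipocyte covariate, 0 among autosomal genes only, 4 without the 3 arrays lowest in Bmp10 and 4 to 7 leaving out 1 array. The median member difference of -0.07 was -0.032 without the Bmp10 arrays and -0.094 with the adipocyte covariate, the ends of its range over 22 alternatives. Members whose sexes did not overlap numbered 2, but 7 with the replicate block (15.1% of all genes), 13 with the adipocyte covariate (13.6%), 5 with the fast skeletal covariate (7.31%), 13 without the 3 arrays highest in Myh4 (22.7%), 7 without the 2 highest in Alb (14.7%), 8 without the Bmp10 arrays (19.8%) and 2 to 6 leaving out 1 array (6.28% to 7.77%). The 3 exclusions by marker were chosen after seeing the data.

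Differences turned for Acacb (0.049), Hadh (0.029), Ech1 (-0.035) and Ppara (0.11) with the adipocyte covariate, and for Ech1 (-0.0089) with the fast skeletal covariate. They turned for Ech1 (-0.063), Eci1 (-0.033) and Esrra (-0.051) without the Myh4 arrays. Without the Alb arrays Slc27a1 (0.0059), Eci1 (-0.0079) and Ppard (-0.012) turned, and without the Bmp10 arrays Acadvl (0.0076), Esrra (-0.0011), Pdk4 (0.063) and Ucp3 (0.095). Leaving out 1 array gave ranges across 0 for Slc27a1 (-0.085 to 0.060), Acacb (-0.035 to 0.020), Hadh (-0.046 to 0.0050), Ech1 (-0.028 to 0.087), Eci1 (-0.0013 to 0.064), Etfa (-0.083 to 0.0049) and Ppara (-0.075 to 0.017). Without subtracting sex means 1 of 11 pairs passed by Pearson (Pdk4 and Ucp3, whose rho of 0.62 had an exact permutation p of 0.115), and Angptl4 with Acot1 had r = 0.0762. Without the 2 outermost arrays r was -0.735 for Pdk4 and Angptl4, 0.845 for Angptl4 and Acot1, -0.871 for Ppargc1a and Esrra and 0.120 for Ppara and Pdk4.

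Deviations of same-numbered males and females correlated at 0.00618 to 0.137, not all above 0.1. Of the 8 arrays, 5 correlated best with the array of their own number in the other sex. The numbers were not taken as pairs in the main fit, and with the replicate block 0 members passed. Whether same-numbered hearts shared a batch was not tested. Only 4 hearts per sex, no wild type, no scanner files and no brightness limit these data. The 95% interval of a member's difference, not adjusted for the number of genes, reached 0.14 to each side at the median, so smaller differences were not resolved. Larger ones, such as that of Angptl4 (-0.28), did not pass the adjustment either. Filters on dim probes could not be run.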

Other observations

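Both PGC-1 coactivators were set side by side within each heart, a description chosen after their opposite differences between the sexes were seen and therefore given without a test. The level of Ppargc1a minus that of Ppargc1b, each relative to its own median heart, ran from -0.29 to -0.02 in males (mean -0.17 ± 0.13 SD, n = 4) and from 0.06 to 0.35 in females (mean 0.19 ± 0.13 SD, n = 4).

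Over the 496 pairs of measured members, 338 (68.1%) had a positive correlation across the 8 hearts after sex means were taken off, with a mean r of 0.19, where the mean over all pairs of genes was 0.0018. The points are the same 8 arrays for every pair, and this is a description only.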
